A study of Mus musculus with 2 samples.

Results

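The Iroquois homeobox family, Irx1 to Irx6, was measured in embryonic mouse hearts, and its members were taken by symbol from the gene tables: 6 genes of 55348 gene entries. The hearts were collected at E13.5, in mid-gestation, from strain 129sv. One library came from wild-type hearts and 1 from hearts with the genotype Lmna H222P/H222P, a homozygous missense mutation of the gene for lamins A and C that serves as a mouse model of laminopathy, and the study concerned the histone demethylase LSD1. RNA was described as total RNA, and how many hearts, or of which sex, went into each library was not stated. With 1 library per genotype no test of the genotypes was possible, so every difference lies between these 2 libraries and every 95% interval covers counting error only.

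Iroquois proteins are transcription factors with a homeodomain of the TALE class and a short conserved Iro box. They lie in clusters that arose by duplication, so that Irx1 pairs with Irx3, Irx2 with Irx5 and Irx4 with Irx6. In the heart, Irx4 is a long-standing marker of ventricular cardiomyocytes, where it favours ventricular over atrial genes, Irx3 acts in the ventricular conduction system, and Irx5 shapes the transmural gradient of potassium current and acts with Irx3 in the endocardium. Several members are also expressed in lung epithelium, neural tissue and limb.

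All 6 genes are annotated as protein-coding in GENCODE release M21, on the mm10 assembly. The IrxA cluster spans 1312 kb of chromosome 13 and holds Irx1 (71957921 to 71963723, minus strand), Irx2 (72628820 to 72634198, plus strand) and Irx4 (73260479 to 73269608, plus strand). The IrxB cluster spans 882 kb of chromosome 8 and holds Irx3 (91798525 to 91802067, minus strand), Irx5 (92357625 to 92376286, plus strand) and Irx6 (92674288 to 92680956, plus strand).

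Upstream sequence is shown for Irx2, the member with the lowest ratio, and for Irx4, the most abundant. Each line gives 230 bases, from 250 to 21 bases before the RefSeq start site, read 5′ to 3′ on the plus strand of GRCm38.p6, the patched form of the same assembly. Capitals mark GC boxes (GGGCGG on either strand), the recognition element of Sp-family factors.
Irx2 (chr13:72628570-72628799): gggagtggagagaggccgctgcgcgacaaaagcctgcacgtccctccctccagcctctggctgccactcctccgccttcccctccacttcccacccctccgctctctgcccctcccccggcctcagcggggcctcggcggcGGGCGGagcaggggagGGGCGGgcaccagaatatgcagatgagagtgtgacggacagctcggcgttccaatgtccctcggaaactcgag
Irx4 (chr13:73260247-73260476): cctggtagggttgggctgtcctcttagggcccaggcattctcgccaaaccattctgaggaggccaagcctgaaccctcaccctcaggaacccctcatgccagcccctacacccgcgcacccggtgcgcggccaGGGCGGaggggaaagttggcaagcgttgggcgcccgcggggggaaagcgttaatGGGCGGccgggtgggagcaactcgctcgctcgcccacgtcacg

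Both windows were rich in CpG, with 18 in Irx2 and 19 in Irx4 against a median of 5 over 32851 promoter windows of the same length. Each held 2 GC boxes, a motif present in 29.8% of all windows. Neither held a GATA motif (AGATAA, 9.49% of windows), an NK2 motif of the Nkx2-5 kind (TNAAGTG, 9.48%), a T-box half-site (GGTGTGA, 3.07%), a TATA box (TATAAA, 11.8%) or the Iroquois motif itself (ACANNTGT, 5.95%), searched on both strands. No match says only that these letters are not in these windows. The window of Irx2 lies wholly within the 255 bases that separate Irx2 from Gm20554, a non-coding entry on the opposite strand whose reads are given with the neighbours of the clusters. RefSeq promoter entries matched 3 of the 6 members, Irx2, Irx3 and Irx4, and that of Irx3 is not printed because it reaches into the GENCODE gene.

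The wild-type library held 32669225 reads on genes and the H222P library 25120790, so the wild-type values rest on more reads. For Lmna, 2068 and 1865 reads gave a log2 ratio of 0.08 (−0.01 to 0.17), which does not check a missense label. All 12 cardiomyocyte markers were detected in both libraries, with a summed level of 22815 CPM (read counts scaled to library size, after TMM adjustment) in wild type and 11897 CPM in H222P. The libraries stood apart in some tissues other than heart muscle. The 12 liver markers summed to 33.3 and 6136 CPM and the 10 erythroid markers to 207 and 1503 CPM. Sftpc, the surfactant gene of distal lung epithelium, had 211 reads in wild type and 1 in H222P. The lung epithelium list, which holds Sftpc, was close to even. It summed to 235 CPM in wild type and 239 CPM in H222P, with a median log2 ratio of −0.07. The 12 liver markers, the 10 erythroid markers and the globin genes were then left out of the scaling. The Iroquois log2 ratios ran from −1.24 to −0.53, the same range as with them. TMM already trims genes with extreme ratios, and other liver and erythroid genes stayed in. This setting could therefore change little, and it does not show what these tissues add to the Iroquois ratios.

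All 6 Iroquois genes had a lower CPM in the H222P library. Irx1, Irx2, Irx3 and Irx4 were at least 2-fold lower and Irx5 and Irx6 were not, so 4 of 6 members passed a bound that 4.35% of 14716 measured genes (mean of at least 1 CPM) passed in the same direction. Among the 5000 genes with a mean level within the members' own range the share was 3.98%. The median log2 ratio, H222P over wild type, was −1.06 for the members and −0.01 for all measured genes. When libraries were scaled by total reads alone, all 6 ratios stayed below 0 but only Irx2 passed 2-fold, and when they were scaled by the summed reads of the cardiomyocyte list none passed and Irx5 and Irx6 lay above 0.

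Irx4, the ventricular member, was the most abundant, with 1193 reads (38.5 CPM, exact Poisson interval 36.3 to 40.8) in wild type and 490 reads (18.5 CPM, 16.9 to 20.2) in H222P. The H222P level lay below the wild-type interval, and the ratio was 2.08-fold lower (1.87 to 2.32). Only 3.83% of measured genes had a lower ratio than Irx4. Its neighbours in the IrxA cluster had similar ratios. Irx1, expressed with Irx2 in the ventricular septum, had 463 and 183 reads, or 14.9 and 6.91 CPM, and was 2.16-fold lower (1.82 to 2.58). Irx2 had 514 and 186 reads, or 16.6 and 7.02 CPM, and was 2.36-fold lower (1.99 to 2.81), the lowest ratio of the family. The interval of Irx2 overlapped those of Irx1 and Irx4, so the order of the 3 genes is within counting error.

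Irx3, the conduction system member, had 593 reads (19.1 CPM, 17.6 to 20.7) in wild type and 241 reads (9.10 CPM, 7.99 to 10.3) in H222P, and was 2.10-fold lower (1.81 to 2.45). Irx5 had nearly the same wild-type level as Irx3, with 601 reads (19.4 CPM), but 353 reads (13.3 CPM) in H222P, and was 1.45-fold lower (1.27 to 1.66). Irx6 was the least abundant member, with 171 reads (5.52 CPM) and 101 reads (3.81 CPM), and was 1.44-fold lower (1.13 to 1.87). Of all measured genes, 12.8% had a lower ratio than Irx5 and 13.2% a lower ratio than Irx6, against 3.70% for Irx3. For none of the 6 did the whole interval lie beyond 2-fold.

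**Figure D1:**
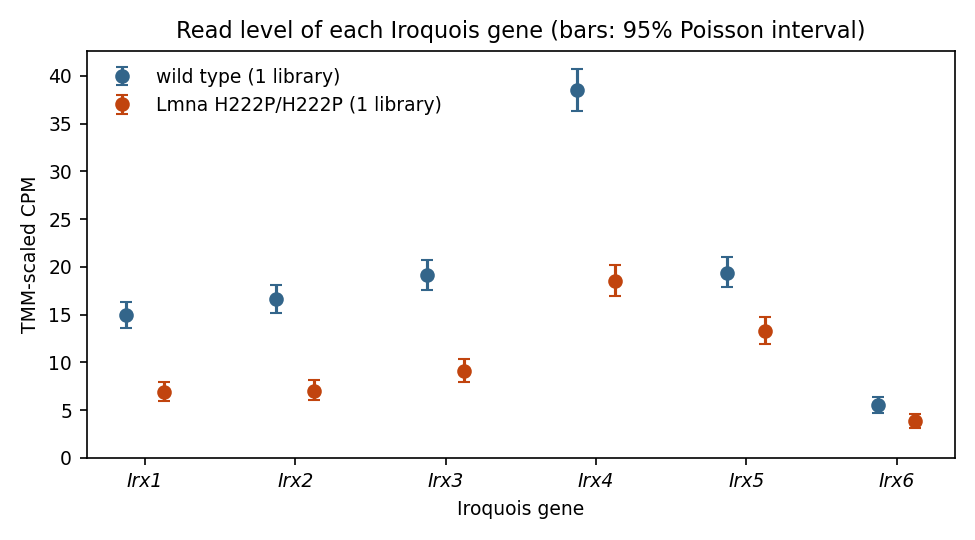
TMM-scaled CPM (y axis) of each Iroquois gene (x axis) in the wild-type and the Lmna H222P/H222P library, 1 library each, with exact 95% Poisson intervals for counting error. Irx4 stands highest in both libraries (38.5 and 18.5 CPM), and each H222P point lies below the wild-type point, although Irx5 and Irx6 lie above 0 on the ratio when the cardiomyocyte list sets the scaling.

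Levels of different genes were compared per kilobase of annotated exon. In wild type the order was Irx4 (14.8 RPKM, the CPM divided by exon length in kilobases), Irx3 (6.93), Irx5 (6.20), Irx1 (5.70), Irx2 (5.05) and Irx6 (1.64). Among the 4 genes between Irx4 and Irx6, neighbours in this order had overlapping intervals. In H222P the order was Irx4 (7.10), Irx5 (4.26), Irx3 (3.29), Irx1 (2.64), Irx2 (2.14) and Irx6 (1.13), and there Irx5 and Irx3 had intervals that did not overlap. Irx4 stood above and Irx6 below the other members in both libraries.

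Within the family the balance differed between the libraries, a comparison that does not depend on how the libraries are scaled. Irx5 took 17.0% of the 3535 family reads in wild type (Clopper-Pearson interval 15.8 to 18.3) and 22.7% of the 1554 family reads in H222P (20.7 to 24.9). Irx6 took 4.84% (4.15 to 5.60) and 6.5% (5.32 to 7.84). The other shares were each smaller in H222P: Irx4 33.7% and 31.5%, Irx3 16.8% and 15.5%, Irx2 14.5% and 12.0%, and Irx1 13.1% and 11.8%. For each of those 4 genes, and for Irx6, the intervals of the libraries overlapped, and for Irx5 they did not.

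**Figure D2:**
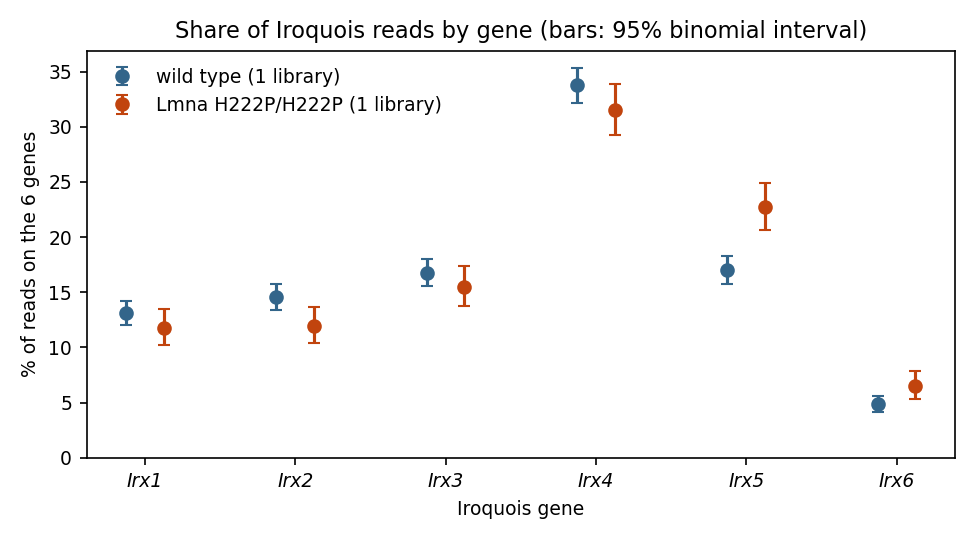
Share of all Iroquois reads (y axis, percent) taken by each gene (x axis) in each library, with exact 95% binomial intervals for counting error. Irx5 takes 17.0% of wild-type and 22.7% of H222P family reads, the 1 gene whose intervals do not overlap.

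The ratio of Irx5 to Irx3 reads, genes of 1 cluster, was 1.01 in wild type and 1.46 in H222P, a ratio of ratios of 1.44 (exact conditional interval 1.18 to 1.77). The ratio of Irx5 to its paralogue Irx2 was 1.17 and 1.90 (1.62, interval 1.30 to 2.02), and that of Irx6 to its paralogue Irx4 was 0.143 and 0.206 (1.44, 1.09 to 1.89). By contrast, Irx3 to its paralogue Irx1 was 1.28 and 1.32 (1.03, 0.814 to 1.30). Over the 15 pairs of members, 8 had an interval that left out 1, and these were the 8 pairs that set Irx5 or Irx6 against Irx1, Irx2, Irx3 or Irx4. The 7 other pairs all had intervals that held 1. These intervals were not adjusted for the number of pairs and leave out variation between hearts. Summed by cluster, IrxA had 2170 and 859 reads (log2 ratio −1.11, −1.23 to −1.0) and IrxB 1365 and 695 reads (−0.75, −0.88 to −0.61), and Irx3 was nearer to the IrxA genes than to Irx5 and Irx6.

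Other transcripts of the loci were read for comparison, taking every annotated entry within 500 kb of the outermost members. Of 70 such entries, 21 had at least 10 reads in the libraries together, of which 5 were lower by at least 1.5-fold and 4 higher by as much, with a median log2 ratio of −0.15. At a mean of at least 1 CPM 14 of these entries remained, 3 of them lower and 2 higher by 1.5-fold, beside 11.4% and 10.9% of all genes measured at that level.

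Of the 5 lower entries, 3 lie beside or across a member on the opposite strand. Crnde, a long non-coding RNA gene whose start lies 1504 bases from that of Irx5, head to head, had 217 and 93 reads and was 1.99-fold lower (log2 interval −1.36 to −0.64). It was lower than Irx5 itself, since the ratio of Irx5 to Crnde reads was 2.77 in wild type and 3.8 in H222P (ratio of ratios 1.37, 1.03 to 1.83). Irx3os overlaps Irx3 by 1653 bases on the other strand, and its 33 and 8 reads gave a log2 ratio of −1.75 (−3.14 to −0.68). Gm20554, which faces Irx2 across the window printed above, was covered by 33 reads in wild type and 15 in H222P (log2 ratio −0.89, −1.90 to 0.01), so at this depth its difference is not beyond counting error.

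The protein-coding neighbours of IrxB were closer to even. Fto, the RNA demethylase gene whose introns hold long-range enhancers of Irx3, had 2673 wild-type and 2094 H222P reads (log2 ratio −0.13, −0.21 to −0.04). Rpgrip1l, a ciliary transition zone gene, had a log2 ratio of −0.13 (−0.32 to 0.05) and Mmp2, a matrix metalloproteinase, −0.15 (−0.21 to −0.08). With total-read scaling, which moves the median of all genes from −0.01 to 0.15, the ratios of Fto and Rpgrip1l turned to 0.03 and 0.02 and that of Mmp2 to 0.003. Ces1d, a carboxylesterase at the far edge, was 2.01-fold lower on 102 and 43 reads.

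At the IrxA locus the nearest protein-coding genes beyond Irx4 were Ndufs6, a subunit of respiratory complex I, with a log2 ratio of −0.53 (−0.61 to −0.45), and Mrpl36, of the mitochondrial ribosome, at −0.29 (−0.43 to −0.16). The non-coding entry Eprn, 75056 bases from Irx4, had 171 and 47 reads and a log2 ratio of −1.63 (−2.13 to −1.16). Further out, Lpcat1, a phospholipid-remodelling enzyme also made in lung epithelium, was 1.60-fold higher, and Tert, the telomerase catalytic subunit, 1.55-fold higher. Slc6a3 rested on 5 and 13 reads. Slc6a19 had 0 wild-type and 11 H222P reads, which makes it at least 4.29-fold higher when 3 reads are taken as the wild-type floor.

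**Figure D3:**
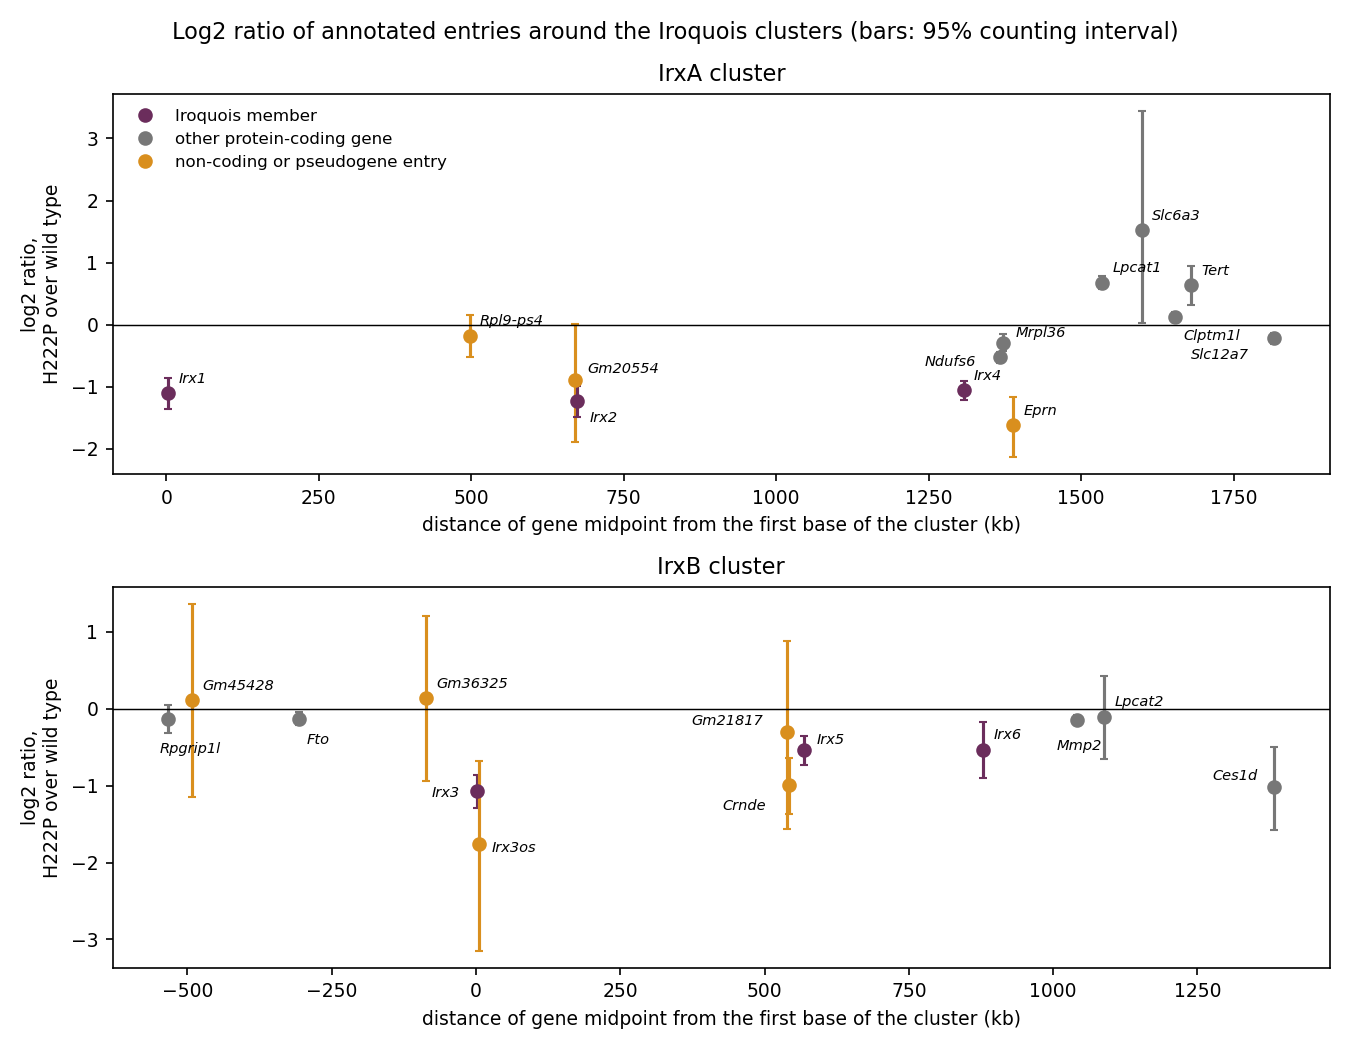
Log2 ratio, H222P over wild type (y axis, with 95% counting intervals), of entries with at least 10 reads, by distance in kb from the first base of the IrxA (upper) and IrxB (lower) cluster, leaving out Slc6a19 with 0 wild-type reads. Members and the adjoining Crnde, Irx3os and Gm20554 lie below 0 under the scaling used, while Fto, Rpgrip1l and Mmp2 lie between −0.15 and −0.13, or just above 0 with total-read scaling.

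The remaining TALE homeobox genes had ratios on the other side of the members'. Of 12 such genes 11 were measured, with a median log2 ratio of 0.42. Of these, 0 were at least 1.5-fold lower and 3 at least 1.5-fold higher, beside 11.4% and 10.9% of all measured genes. With total counts 5 were higher and with DESeq2 size factors 1 was. All 11 lay above 0, except that 1 lay below 0 with DESeq2 size factors, with the unstranded column and with the wild-type library thinned. Meis2, a cofactor of Hox and Pbx proteins, had 2373 and 3060 reads and was 1.51-fold higher (1.43 to 1.59), and Meis1 had 2104 and 2543 reads and was 1.41-fold higher (1.33 to 1.5). Pknox2 was 1.84-fold higher (1.52 to 2.23) on 178 and 280 reads.

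Genes that act upstream of or with Iroquois factors in the heart had a median nearer 0 than the members under TMM scaling. Among 9 regulators and partners 0 passed the 1.5-fold bound downwards and 1 upwards, beside 11.4% and 10.9% of all measured genes. In a list of 9 these counts lie near those shares. The median log2 ratio was −0.13, and it turned to 0.02 with total-read scaling and to 0.81 with the cardiomyocyte list as the scale. Nkx2-5 and Hand2, both needed for Irx4 expression in the mouse ventricle, had log2 ratios of −0.47 (−0.55 to −0.39) and −0.08 (−0.17 to 0.00). Gata4 lay at −0.31, Gata6 at −0.33, Mef2c at −0.35, Tbx5 at −0.13 and Rxra, a nuclear receptor partner of Irx4, at −0.11. Hand1, of the left ventricle, was 1.85-fold higher on 311 and 493 reads. Nkx2-5 had the lowest log2 ratio of the 18 genes of this list and the TALE list with a mean of at least 5 CPM. All 6 members lay below it, by 0.06 (Irx6) to 0.77 (Irx2). The intervals of Irx5 (−0.74 to −0.35) and Irx6 (−0.90 to −0.17) held the Nkx2-5 value, so their order against it is within counting error.

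Of 10 genes reported as Iroquois targets or as chamber genes that respond to them, 9 were measured, with a median log2 ratio of −0.59. Of these, 5 were at least 1.5-fold lower and 0 higher, beside 11.4% and 10.9% of all measured genes. Gja1, the connexin 43 gene that Irx3 represses in the conduction system, had 12142 and 5072 reads and was 2.05-fold lower. Gja5, the connexin 40 gene that Irx3 favours there, had 5874 and 3341 reads and was 1.5-fold lower. Bmp10, a growth factor of the trabecular myocardium, had 1569 and 619 reads and was 2.17-fold lower (log2 interval −1.25 to −0.98).

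Of the potassium channel genes, Kcnd2, which Irx5 represses in the adult ventricle, had 336 wild-type and 215 H222P reads (log2 ratio −0.42, −0.67 to −0.17). Kcnd3 had 173 and 192 reads and a log2 ratio of 0.38 (0.07 to 0.68), and Kcnip2, their accessory subunit, had 28 and 27 reads, too few to show a difference. Of the chamber genes, Myh7 and Nppa were lower (log2 ratios −1.07 and −1.21) and the atrial myosin gene Myh6 lay at −0.17. With the cardiomyocyte list as the scale, this list's median turned to 0.35. None of the 10 promoter windows matched for 9 of the target genes held the Iroquois motif. It is present in only 5.95% of all windows, so its absence from these 10 says little.

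**Figure D4:**
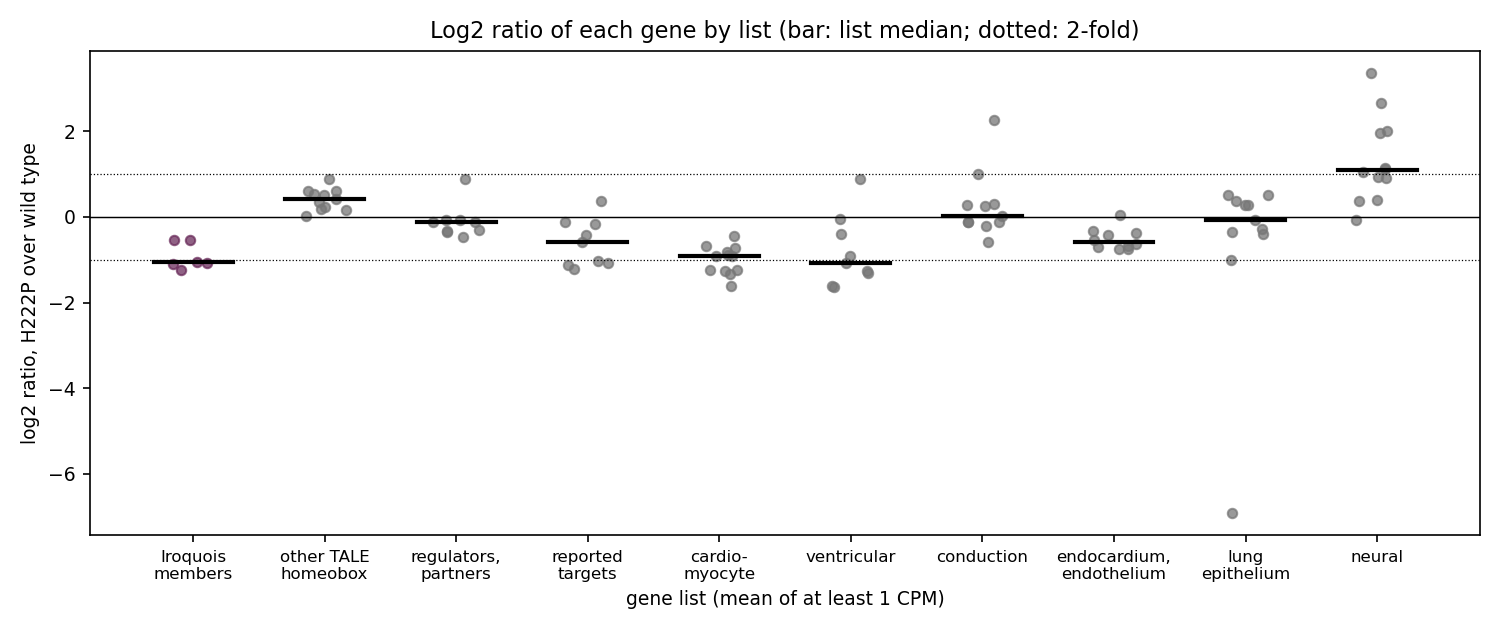
Log2 ratio, H222P over wild type (y axis), of each gene with a mean of at least 1 CPM in 10 lists (x axis), with list medians as bars and 2-fold as dotted lines, under TMM scaling. Among the lists drawn, the Iroquois median (−1.06) lies next to the ventricular (−1.07) and cardiomyocyte (−0.92) medians and below that of the other TALE genes (0.42). A surface epithelium list of 2 measured genes, not drawn, has a median of −1.07. With the cardiomyocyte list as the scale every median drawn lies above 0 except the Iroquois (−0.12) and ventricular (−0.13) ones.

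Markers of heart cell types were read beside 11.4% of all measured genes at least 1.5-fold lower and 10.9% higher. Of 12 cardiomyocyte markers 11 were at least 1.5-fold lower (median log2 ratio −0.92), and of 9 ventricular markers 6 were lower and 1 higher (median −1.07, summed level 14061 and 5900 CPM). Irx4, at −1.06, was thus close to the median of the ventricular markers, whose log2 ratios ran from −1.63 to 0.89. Among them Myh7, the ventricular myosin, was 2.11-fold lower, Pln, which restrains the calcium pump, 3.10-fold lower and Hand1 1.85-fold higher. Of 10 endocardial and endothelial markers 5 were lower and 0 higher (2 lower with total counts, median −0.58, summed level 1060 and 699 CPM, and 0.36 for the median with the cardiomyocyte list as the scale), close to Irx5 at −0.54. Conduction system markers had a median of 0.02 (−0.01 with DESeq2 size factors, −0.03 with the wild-type library thinned). Of these 11 markers 1 was lower and 2 higher, near the shares of all measured genes. Irx3, at −1.07, was close to neither the conduction nor the endocardial median. Atrial, epicardial and valve mesenchyme markers had medians of −0.21, −0.38 and 0.55 under TMM scaling. A member's nearness to a list median does not show which cells hold its transcripts. In whole hearts, fewer cells of a type and less RNA per cell cannot be told apart.

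When the summed reads of the cardiomyocyte list set the scale, the log2 ratios became −0.12 for Irx4, −0.13 for Irx3, −0.17 for Irx1 and −0.30 for Irx2, and 0.40 for Irx5 and 0.41 for Irx6. Relative to the summed cardiomyocyte reads, then, no member was 1.5-fold apart. Single markers of that list ran from −1.62 to −0.46 under TMM scaling, so the distance of a member from any 1 marker can differ. This scale places the median of all measured genes at 0.94, and the counts of the lists move with it. On it, 11 of 11 TALE genes, 8 of 9 regulators and partners, 3 of 9 targets, 2 of 10 endocardial, 10 of 11 conduction and 7 of 11 lung epithelium genes were at least 1.5-fold higher, and 0 of the TALE, regulator, target, endocardial and conduction genes were lower.

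**Figure D5:**
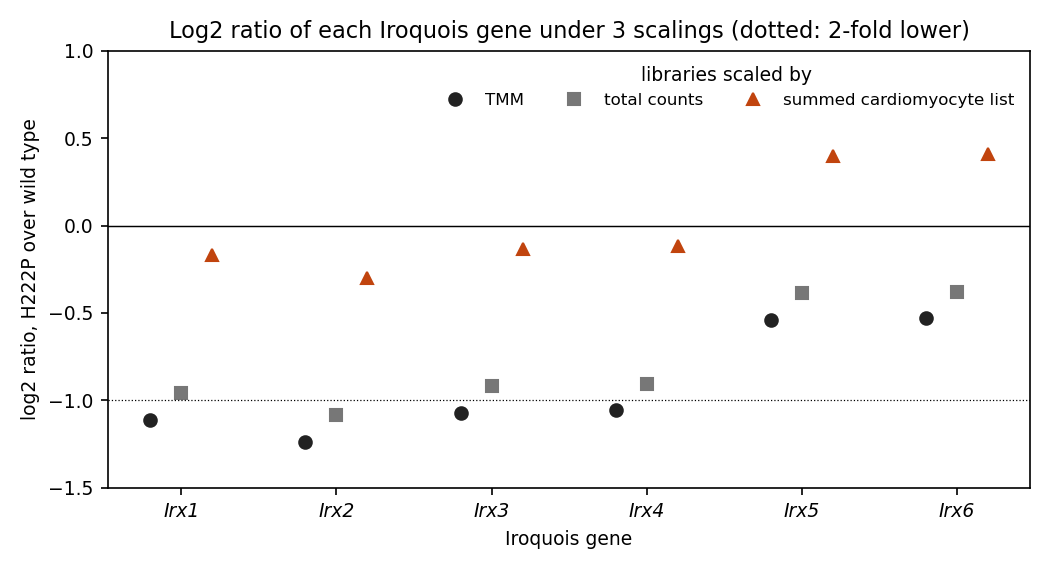
Log2 ratio, H222P over wild type (y axis), of each Iroquois gene (x axis) with libraries scaled by TMM, by total counts and by the summed reads of the cardiomyocyte list. All 6 lie below 0 with TMM and total counts, and with the cardiomyocyte list Irx5 and Irx6 lie above 0 at 0.40 and 0.41.

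Markers of other tissues that express Iroquois genes were read as well, beside 11.4% of all measured genes at least 1.5-fold lower and 10.9% higher. Of 11 measured lung epithelium markers 2 were at least 1.5-fold lower and 0 higher (2 higher with total counts, 0 of 12 at 0 reads in either library). As a list they were close to even, with a summed level of 235 and 239 CPM and a median log2 ratio of −0.07 (0.08 with total counts). The lower pair were Nkx2-1, with 381 and 161 reads, and Sftpc, whose single H222P read gave a log2 ratio of −6.91 (−12.81 to −5.0), while the signal gene Shh (163 and 200 reads) and Id2 (3287 and 3412 reads) had log2 ratios of 0.52 and 0.28. Of 12 measured neural markers 9 were at least 1.5-fold higher and 0 lower (summed level 40.9 and 94.9 CPM). Of 5 surface epithelium markers only 2 were measured, and both were at least 1.5-fold lower (1 with total counts). Their median log2 ratio of −1.07 was as near to the Iroquois median as the ventricular one. The part of these tissues, and of the liver and erythroid transcripts, in the Iroquois ratios was not tested.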

How the data were processed

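The authors deposited a raw count of reads for every gene entry. Per the submitters' processing notes the build was mm10 and the tools were STAR, DESeq and HTSeq, with no version or role stated. For the annotation, the release was not given in the sources used here. The tables each hold 3 count columns (both strands, and each strand alone), and the reverse-strand column was used because its reads exceeded those of the other strand 19.3-fold in wild type and 20.5-fold in H222P. Summary entries (unmapped, multiply mapped, unassigned and ambiguous reads) were left out of library sizes. Multiply mapped reads do not enter the counts per gene.

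Libraries were scaled by TMM (edgeR 4.0.16, R 4.3.3, factors 0.948 and 1.05), computed on the whole table. Log2 ratios used a prior count of 0.5. Intervals of ratios are exact Clopper-Pearson intervals of the share of reads at 95% (scipy 1.17.1, Python 3.11.15), and levels carry exact Poisson intervals. The tables hold no molecular identifiers, so reads cannot be taken as independent molecules. A gene counted as measured at a mean of at least 1 CPM. The log2 ratios and their intervals were tested on simulated Poisson counts, which hold no variation between hearts. The scaling, shares and pair ratios were not tested in this way. Gene positions and exon lengths came from GENCODE M21, promoter windows from RefSeq (GRCm38.p6).

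The members and the 17 gene lists were chosen with earlier results of these data known. All members, every gene of the TALE, regulator and target lists, neighbours with at least 10 reads, and in the other lists the most abundant gene and the highest and lowest above 5 CPM could be named. Sftpc and Lmna were named outside this rule, Sftpc after its values were seen. Alternative settings were size factors of DESeq2 1.42.0, total counts, the cardiomyocyte list as scale, the unstranded column and a prior count of 5. Others left out the listed liver and erythroid markers and the globin genes, thinned the deeper library, or used other filters on low counts. Values of 2 list genes are not reported here, and proteins were not compared here.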

Additional observations from a re-analysis of the deposited data

How the results depend on the processing

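Each Iroquois log2 ratio stayed within its counting interval with DESeq2 size factors, the unstranded column, a prior count of 5 or a thinned wild-type library. The same held without the listed liver and erythroid markers and the globin genes. In these settings 4 members stayed at least 2-fold lower, also without a filter or with one at 5 CPM. With total counts Irx4 moved to −0.90, IrxA to −0.96 and IrxB to −0.59, and 1 member was 2-fold lower. With the cardiomyocyte list as scale the values were −0.17 (Irx1), −0.30 (Irx2), −0.13 (Irx3), −0.12 (Irx4), 0.40 (Irx5), 0.41 (Irx6), −0.17 (IrxA) and 0.19 (IrxB), with 0 members 2-fold apart. These shifts follow from the construction of the scales. The unstranded column left Irx3 with 478 and 197 reads, where reads overlapping Irx3os are ambiguous without strand, and its wild-type share fell from 16.8% to 13.9%. No paired analysis was possible because each genotype had 1 library, and none could be left out. Depth limits Irx3os, Gm20554, Kcnip2 and Slc6a3, each under 40 reads per library.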
